A study of Mus musculus with 9 samples.

Results

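The comparison described here set IN@OMVs against OMVs in tumour-associated macrophages, at the same dose of vesicle protein. It set 6 of the study's 9 libraries against each other, the 3 labelled IN@OMVs and the 3 labelled OMVs, and every gene of the table was eligible. The 3 Control libraries were part of the same fit, where they helped to estimate the spread. The macrophages came from tumours of MC38, a mouse colon carcinoma line, which grew under the skin of female wild-type C57BL/6 mice aged 6 to 8 weeks. Treatment started on day 9 and was given into the tumour. In the OMVs group each mouse was given OMVs with 12.5 µg of vesicle protein (625 µg per kg). The IN@OMVs group was given IN@OMVs with the same 12.5 µg, and the Control group solvent (PBS). Cells positive for CD11b and F4/80 were sorted from the tumours, and their polyadenylated RNA was sequenced. The labels do not spell out IN. They call each library a biological replicate, but no source used here says how many mice make up a replicate. P-values therefore measure the spread between these libraries, which may be partly technical. The comparison asks how the sorted cells differed between the 2 preparations at 1 vesicle dose. No group that received IN without vesicles is among the libraries analysed here.

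OMVs is a common abbreviation of outer membrane vesicles, a name the labels do not write out. Such vesicles are small spheres that Gram-negative bacteria shed, and they carry lipopolysaccharide, lipoproteins and other bacterial molecules. Macrophages recognise these molecules through Toll-like receptors, which activate NF-kB (a family of transcription factors) and lead to cytokines such as IL-1 and IL-6, to chemokines that attract neutrophils, and to type I interferons. Interferon-γ, made mainly by T cells and NK cells, acts on macrophages and induces guanylate-binding proteins, immunity-related GTPases and antigen presentation genes. Interleukin-4 and related cytokines drive a different programme, called alternative activation, with lectins, Arg1 and type 2 chemokines among its genes.

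Libraries held 16838472 to 17288322 expected counts (estimated read counts per gene) in the 6 libraries compared. CPM, the unit of every level below, are counts scaled by library total and TMM factor. They are not corrected for gene length, so levels of different genes are not compared. Summed over 13 macrophage marker genes, Adgre1 (which encodes F4/80), Itgam (CD11b) and Csf1r among them, the level was 18300 to 25800 CPM in IN@OMVs and 18400 to 24700 CPM in OMVs. None of these 13 markers passed the edgeR test (2 at an unadjusted p under 0.05, and 1 in DESeq2). One library stood apart. On the first principal component of all 9 libraries, which held 42.6% of the variance, IN@OMVs 1 lay at -62.7 and the others between -3.36 and 20.1. Its 14 fibroblast markers summed to 2050 CPM, against 6440 and 6270 CPM in IN@OMVs 2 and 3 and 4670 to 6210 CPM in OMVs. The 14 T cell markers in the table summed to 363, 136 and 204 CPM in IN@OMVs 1, 2 and 3 and to 315, 120 and 145 CPM in OMVs 1, 2 and 3, so library 1 of each group was the high one. None of the 14 fibroblast or 14 T cell markers passed in edgeR or DESeq2 (0 and 1 at an unadjusted p under 0.05). All 14 T cell markers had a positive log2 fold change (median 0.24), and 12 of 14 fibroblast markers a negative one (median -0.22). The 10 NK cell markers summed to 141, 53.3 and 76.7 CPM in IN@OMVs and 113, 34.5 and 38.2 CPM in OMVs. Of 9 tested NK cell markers 5 were positive, 4 negative and 0 passed in edgeR. Other marker lists held calls. Of 10 tested endothelial markers 2 rose and 1 fell, and of 12 conventional dendritic cell markers 1 rose and 0 fell. Among 4 tested epithelial or tumour cell markers 1 fell and 0 rose. Neutrophil and monocyte markers, which also held calls, are described below. The part of any of these cells in the interferon genes was not tested.

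**Figure D1:**
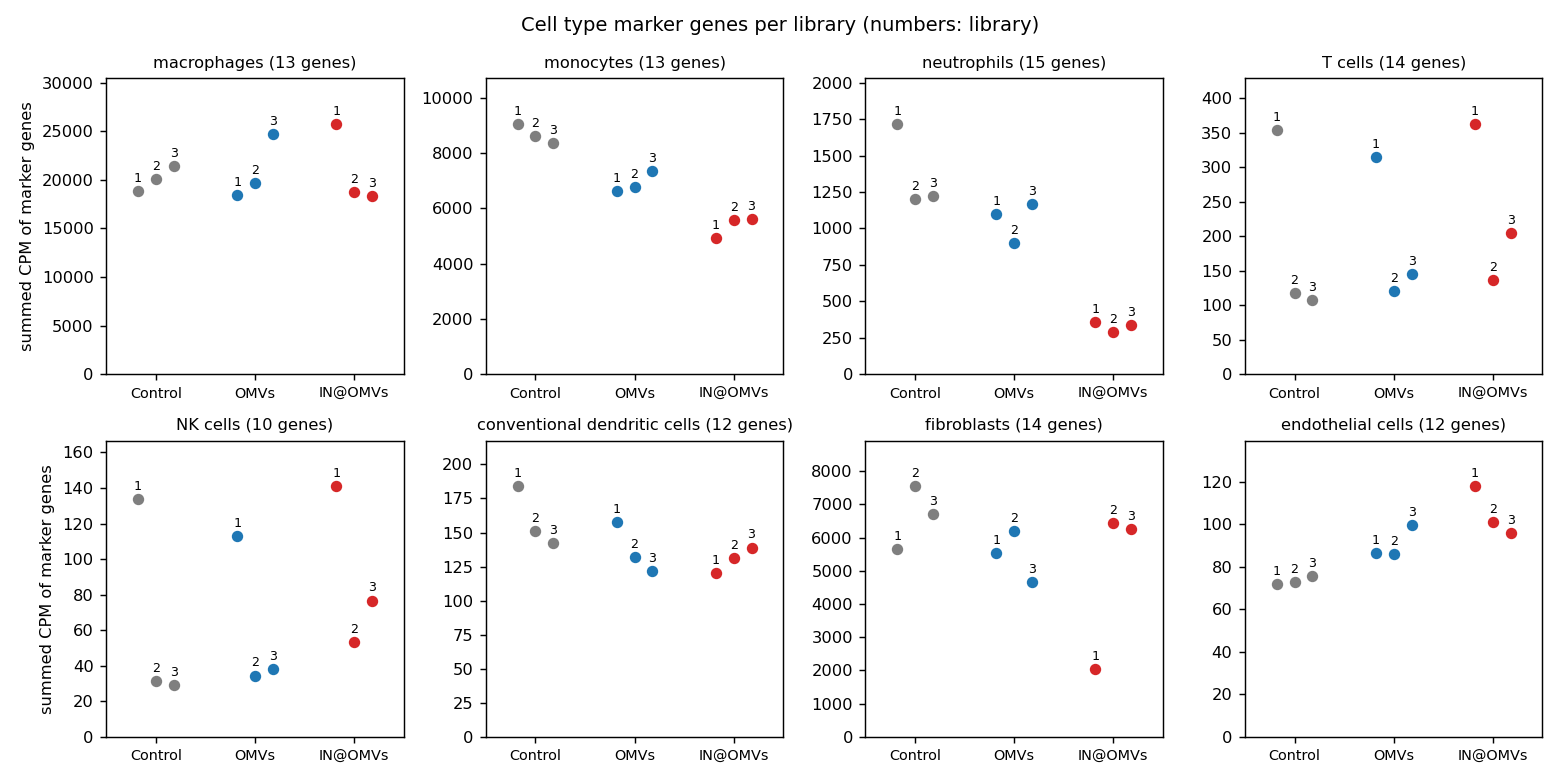
Summed CPM of the marker genes of 8 cell types (y axis, starting at 0) in each of the 9 libraries, grouped by treatment (x axis) and numbered by library. Neutrophil markers lay at 290 to 358 CPM in IN@OMVs and 900 to 1170 CPM in OMVs, while macrophage markers of both groups overlapped, and fibroblast markers were low in IN@OMVs 1.

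Of 13090 genes tested, 373 (2.85%) differed between IN@OMVs and OMVs at an adjusted p under 0.05. The 144 genes higher in IN@OMVs were 1.10% of those tested and the 229 lower genes 1.75%. Counts of list members below are to be read beside these shares. Falls were larger than rises. A difference of at least 1 on the log2 scale (2-fold) was found for 89 lower and 21 higher genes, and one of at least 2 for 36 lower and 2 higher genes. The median log2 fold change was -0.003 over all genes tested, 0.59 over the higher genes and -0.83 over the lower ones. In each of the 373 genes the 3 IN@OMVs libraries lay all above or all below the 3 OMVs libraries. Such a separation, with no test, was seen for 8.86% of all tested genes in the higher direction and 8.72% in the lower. Against the same 3 Control libraries 55 genes (0.420%) differed in OMVs and 858 (6.55%) in IN@OMVs.

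The number of genes called moved with the libraries in the fit. With only the 6 libraries compared 195 genes passed, 60 higher and 135 lower. Without IN@OMVs 1, the library that stood apart, 786 genes passed, 297 higher and 489 lower, and these held 369 of the 373 and all 89 genes that passed among the 100 named by rule. Without IN@OMVs 3 it was 191 genes. Leaving out OMVs 1, 2 or 3 left 212, 180 or 199 genes, and leaving out Control 3 left 243.

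**Figure D2:**
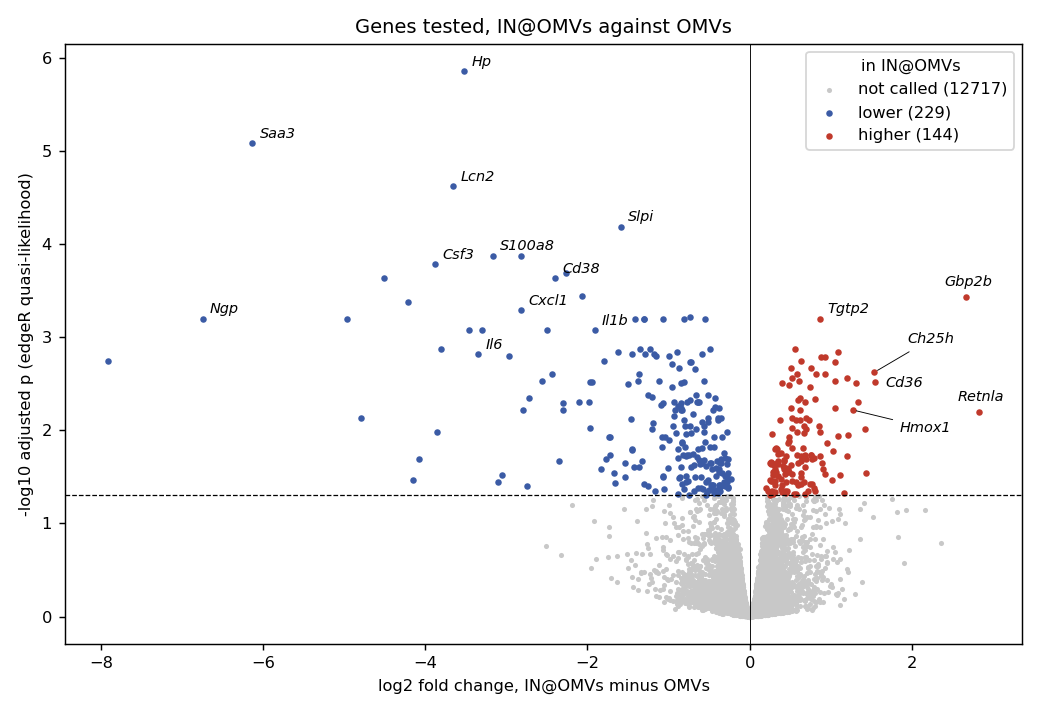
Log2 fold change of IN@OMVs minus OMVs (x axis) against -log10 of the adjusted p (y axis) for each of the 13090 genes tested. Red points are the 144 genes higher in IN@OMVs and blue points the 229 lower ones. Saa3, Hp and Lcn2 lie far to the left and Gbp2b far to the right. The leftmost point, Saa1, had no counts in IN@OMVs, so its position depends on the fit.

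Genes of the interferon-γ response rose in IN@OMVs beyond their level in OMVs. In a list of 29 tested members, 20 rose and 0 fell, and the median log2 fold change was 0.57. Gbp2b, a guanylate-binding protein that helps to attack vacuoles holding pathogens, stood at 16.9, 12.3 and 14.5 CPM in IN@OMVs 1, 2 and 3, at 2.01, 2.33 and 2.51 CPM in OMVs 1, 2 and 3 and at 2.56, 2.22 and 1.61 CPM in Control. All IN@OMVs libraries were far above both other groups, and OMVs and Control overlapped. The difference from OMVs was 2.67 ± 0.20 (log2 fold change ± SE, adjusted p = 0.000371), the largest rise among annotated genes with a mean of at least 5 CPM. Differences that follow are log2 fold changes ± SE in the same way, and 3 levels in a row are libraries 1, 2 and 3.

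The members named next rose by less, and from levels that OMVs had already raised above Control. Tgtp2, an immunity-related GTPase, was at 331, 288 and 294 CPM in IN@OMVs, 154, 172 and 175 CPM in OMVs and 108, 101 and 99.9 CPM in Control. The groups formed 3 steps that did not overlap, and the upper step was 0.87 ± 0.07 (adjusted p = 0.000635). Iigp1, of the same GTPase family, was at 596, 533 and 560.2 CPM in IN@OMVs and 262, 326 and 334 CPM in OMVs, a difference of 0.88 ± 0.09 (adjusted p = 0.00162). Gbp3 measured 239.8, 229 and 233 CPM in IN@OMVs and 151, 164 and 162 CPM in OMVs, with a difference of 0.55 ± 0.05 (adjusted p = 0.00135). OMVs against Control was 0.70 ± 0.07 for Tgtp2 (adjusted p = 0.0234), 0.79 ± 0.09 for Iigp1 (adjusted p = 0.0234) and 0.37 ± 0.06 for Gbp3 (adjusted p = 0.0363). Socs1, which feeds back to block interferon and cytokine signalling, was at 36.2, 32.8 and 27.6 CPM in IN@OMVs, 17.7, 19.2 and 18.6 CPM in OMVs and 11.4, 11.2 and 10.2 CPM in Control. It too rose in steps, by 0.80 ± 0.10 from OMVs to IN@OMVs (adjusted p = 0.00456).

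Chosen after their values were seen, Gbp2 (0.75, adjusted p = 0.00345), Irgm1 (0.63, adjusted p = 0.00181) and Batf2 (0.69, adjusted p = 0.00497) were also higher in IN@OMVs. Cxcl9, a chemokine that interferon-γ induces and that attracts T cells, did not pass, at 0.36 ± 0.14 (adjusted p = 0.282). Its IN@OMVs libraries measured 1179, 908 and 917 CPM and its OMVs libraries 641, 790.3 and 916 CPM, so the lowest IN@OMVs library lay below the highest OMVs library. Members of these families are near copies of each other, and Tgtp2 had a fractional expected count in all 9 libraries, a sign of reads shared with another sequence. Without IN@OMVs 3 or without OMVs 1 the count of risen members was 12, and without OMVs 3 it was 13.

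Promoters of genes that rose are shown here because they hold matches to interferon motifs. Each line is the RefSeq promoter of assembly GRCm38.p6, 300 bases from 250 before to 50 after the transcription start, 5′ to 3′ on the gene's own strand, with motif matches in capitals. Searched on both strands were ISRE, the interferon-stimulated response element, as TTTC, any 2 bases and TTTC, and GAS, the STAT site, as TTCNNNGAA. Gbp2b lies at chr3:142594597-142594896 on the plus strand, Tgtp2 at chr11:49064163-49064462 on the minus strand and Ifit3 at chr19:34583279-34583578 on the plus strand.
Gbp2b: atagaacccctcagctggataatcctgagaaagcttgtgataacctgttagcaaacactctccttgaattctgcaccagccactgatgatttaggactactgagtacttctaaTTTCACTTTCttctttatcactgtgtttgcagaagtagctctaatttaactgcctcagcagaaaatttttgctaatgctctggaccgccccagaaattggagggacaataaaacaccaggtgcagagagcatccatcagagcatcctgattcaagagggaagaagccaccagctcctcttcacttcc
Tgtp2: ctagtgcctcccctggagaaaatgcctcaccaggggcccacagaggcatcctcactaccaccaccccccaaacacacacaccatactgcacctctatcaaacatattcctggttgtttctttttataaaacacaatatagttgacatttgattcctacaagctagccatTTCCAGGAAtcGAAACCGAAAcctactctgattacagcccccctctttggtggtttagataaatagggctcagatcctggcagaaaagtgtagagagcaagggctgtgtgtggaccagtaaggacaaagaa
Ifit3: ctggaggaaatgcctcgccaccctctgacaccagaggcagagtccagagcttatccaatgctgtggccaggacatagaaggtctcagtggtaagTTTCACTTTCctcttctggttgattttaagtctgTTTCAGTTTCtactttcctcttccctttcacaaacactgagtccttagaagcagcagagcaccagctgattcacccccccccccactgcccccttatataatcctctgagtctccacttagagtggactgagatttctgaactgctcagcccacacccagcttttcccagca
In Gbp2b the capitals mark 1 ISRE match, in Tgtp2 a GAS match followed by an ISRE match on the opposite strand, and in Ifit3 2 ISRE matches. An ISRE match was present in 20.0% of 145 promoters of genes higher in IN@OMVs, in 2.69% of 223 promoters of lower genes and in 3.25% of 13295 promoters of tested genes. Over all 32851 promoters of the same length it was 3.44%. Some genes have more than 1 promoter, so these are 112 of the 144 higher genes and 180 of the 229 lower ones. For GAS the shares were 12.4% of promoters of higher genes, 13.5% of lower, 6.94% of tested genes and 8.30% of all. Of the interferon-γ list, 61.9% of 21 promoters (of 18 genes, where 29 were tested) held an ISRE match and 42.9% a GAS match. The 2 motifs overlapped in 24 of the 32851 promoters. These shares are descriptions without a test, and a match does not show binding.

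Type I interferon genes encode antiviral effectors. Of 30 tested members 14 rose and 0 fell, all 30 had a positive log2 fold change, and the median was 0.45. Ifit3, which binds viral RNA together with its relatives, was at 232, 175 and 183 CPM in IN@OMVs, 99.2, 103 and 106 CPM in OMVs and 97, 95.2 and 96.7 CPM in Control. OMVs stood close to Control, and IN@OMVs was above both, 0.93 ± 0.10 higher than OMVs (adjusted p = 0.00162). Isg15, a ubiquitin-like protein, measured 116, 94.3 and 96.4 CPM in IN@OMVs and 64.9, 68.9 and 68.8 CPM in OMVs, 0.60 ± 0.08 higher (adjusted p = 0.00472). Stat2, a transcription factor of the type I interferon signal, rose by 0.52 ± 0.08 (adjusted p = 0.00949), from 169, 179 and 185 CPM in OMVs to 287, 233 and 243 CPM in IN@OMVs. In all 3 genes IN@OMVs 1 was the highest library and the groups did not overlap. Ifit3 had fractional expected counts in all 9 libraries, and Ifit3b is a near copy of it. The 14 calls fell to 6, 5 and 6 without OMVs 1, 2 and 3, to 9 without Control 2 and to 8 without Control 3.

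Of 23 antigen presentation genes of class I, 3 rose (Tap2, Nlrc5 and Psmb10) and the median was 0.31. Nlrc5, the activator of class I transcription, was at 260.1, 225 and 244 CPM in IN@OMVs and 180.2, 175 and 168 CPM in OMVs, a difference of 0.48 ± 0.09 (adjusted p = 0.0259). Its groups did not overlap, but the 3 class I calls were lost, with 0 left, without IN@OMVs 3 or without any 1 of the OMVs libraries, where the adjusted p of Nlrc5 reached 0.108. They were 1 without Control 2 or 3, 5 without IN@OMVs 1 and 10 in DESeq2. Of 16 class II genes none passed in edgeR (8 at an unadjusted p under 0.05), with a median of 0.37, while 3 passed without IN@OMVs 1, 1 without IN@OMVs 2 and 5 in DESeq2. H2-Ab1, a class II chain, measured 3052, 2204 and 2097 CPM in IN@OMVs and 1697, 1708 and 2043 CPM in OMVs. Its libraries did not overlap, and the difference of 0.43 ± 0.14 did not pass (adjusted p = 0.19).

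**Figure D3:**
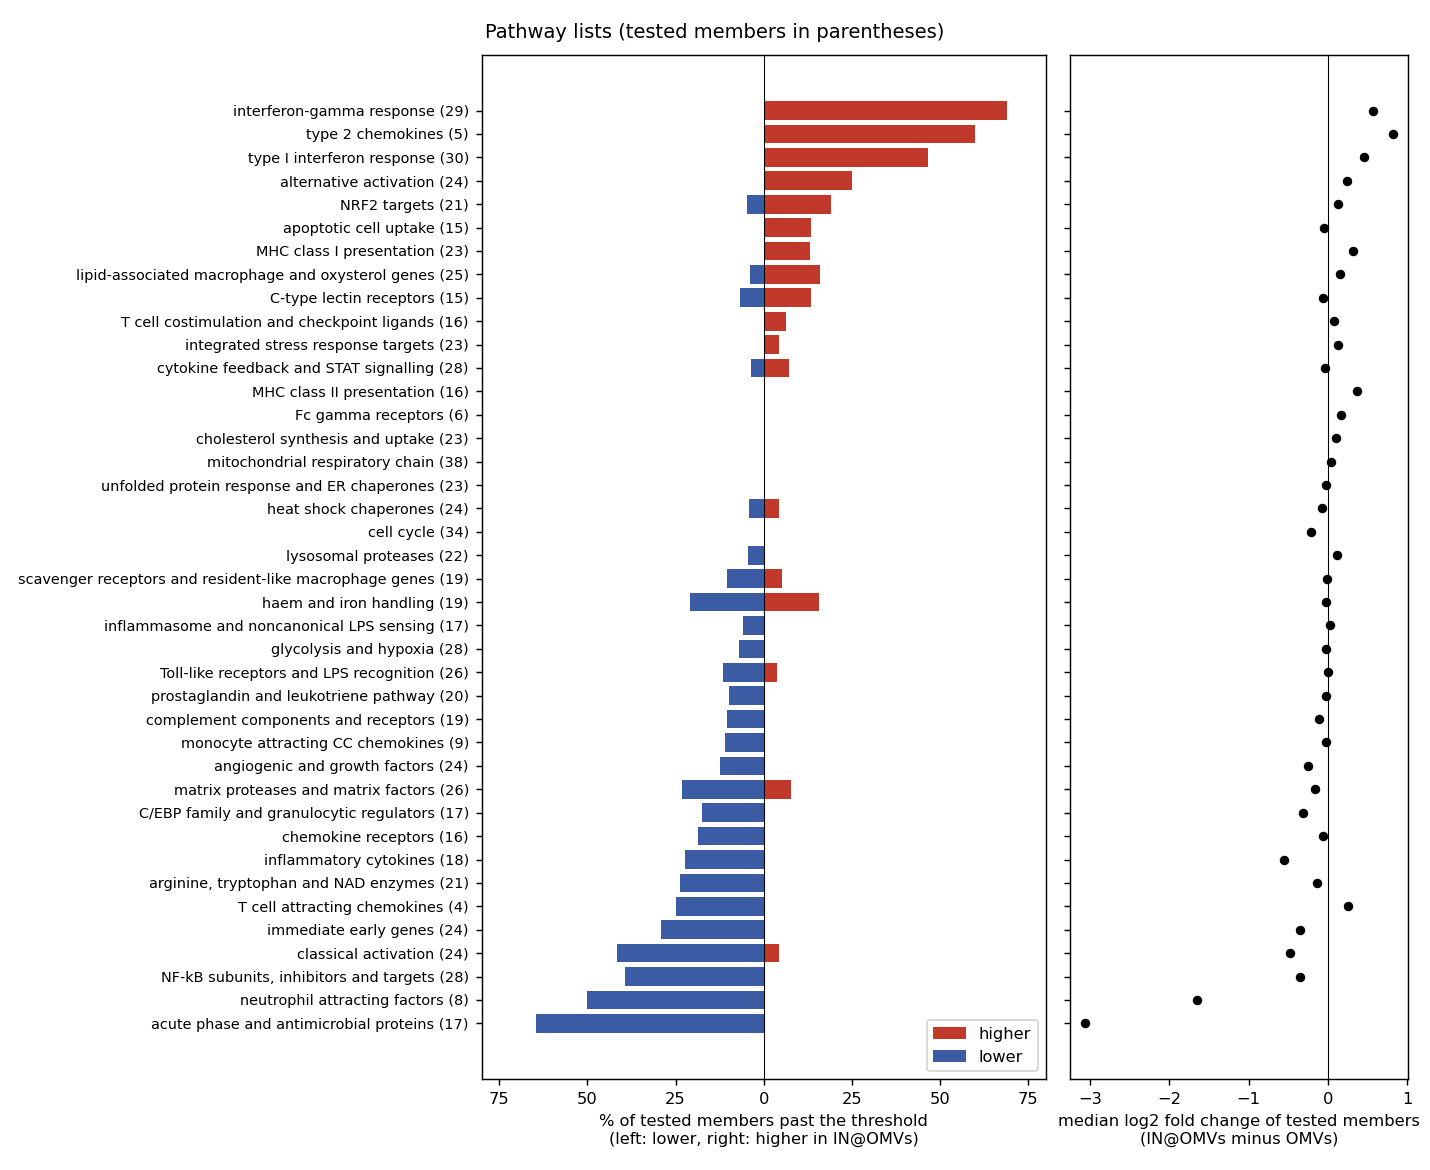
Share of the tested members of 40 pathway lists that passed the test (left panel, x axis in percent, lower to the left and higher to the right) and the median log2 fold change of the tested members (right panel), IN@OMVs minus OMVs. Interferon lists and type 2 chemokines lie at the top with medians of 0.45 to 0.82, and acute phase proteins at the bottom with -3.06.

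Acute phase and antimicrobial proteins had the lowest median of the 40 lists. These are secreted in inflammation, bind iron, zinc, haemoglobin or lipids, and are made by neutrophils, by activated macrophages and by the liver. Of 17 tested members 11 fell and 0 rose, with a median log2 fold change of -3.06. Setting Saa1 to its bound of -4.9 cannot move this median, since the bound lies below it too. Saa3, the serum amyloid A that macrophages make, was at 4.37, 6.84 and 7.28 CPM in IN@OMVs, 359.9, 410.4 and 534 CPM in OMVs and 442, 572 and 598 CPM in Control. OMVs overlapped Control, and every IN@OMVs library was far below both, with a log2 fold change of -6.13 ± 0.24 against OMVs (adjusted p = 8.26e-06). Hp, haptoglobin, which captures free haemoglobin, measured 15.2, 14.4 and 18.1 CPM in IN@OMVs, 181, 166 and 199 CPM in OMVs and 307, 293 and 277 CPM in Control. Here the order was Control, OMVs, IN@OMVs with no overlap, and the step between the vesicle groups was -3.52 ± 0.11 (adjusted p = 1.39e-06), the smallest p of all genes tested. Lcn2, lipocalin 2, which withholds iron from bacteria, was at 8.99, 6.56 and 6.64 CPM in IN@OMVs and 101, 75 and 103 CPM in OMVs, -3.65 ± 0.17 (adjusted p = 2.37e-05). Slpi, an inhibitor of neutrophil proteases, was at 19.3, 18.5 and 17.9 CPM in IN@OMVs and 53.3, 53.3 and 60.5 CPM in OMVs, -1.58 ± 0.09 (adjusted p = 6.51e-05). Saa1 had 0 expected counts in all 3 IN@OMVs libraries and 90 over the OMVs libraries, at least 29.8-fold lower against a floor of 3 counts over the group.

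The promoter of Saa3 is shown for contrast with those of the interferon genes, since it too holds an ISRE match but the gene fell. It lies at chr7:46715627-46715926 of GRCm38.p6 on the minus strand, printed as above, with the 1 ISRE match in capitals.
Saa3: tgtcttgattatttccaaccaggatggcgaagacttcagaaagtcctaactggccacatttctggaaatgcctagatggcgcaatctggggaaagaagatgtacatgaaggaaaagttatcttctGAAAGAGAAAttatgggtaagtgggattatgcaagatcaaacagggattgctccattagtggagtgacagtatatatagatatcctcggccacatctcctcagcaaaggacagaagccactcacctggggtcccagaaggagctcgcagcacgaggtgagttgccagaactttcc
This match is one of 6 among the 223 promoters of genes lower in IN@OMVs. No match to the NF-kB consensus was found in this window of 300 bases.

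Neutrophil markers fell in the same libraries. Of 15 tested markers 13 fell and all 15 had a negative log2 fold change, with a median of -2.32. Summed, they reached 358, 290 and 336 CPM in IN@OMVs, 1100, 900 and 1170 CPM in OMVs, and 1720, 1200 and 1220 CPM in Control. None of them was at 0 in every library, and 5 of the 17 acute phase members are neutrophil markers as well. S100a8, a subunit of calprotectin, measured 20.1, 13.6 and 14.5 CPM in IN@OMVs, 149.8, 119 and 163 CPM in OMVs and 262, 196 and 191 CPM in Control. IN@OMVs lay far below both, -3.16 ± 0.20 against OMVs (adjusted p = 0.000133). Retnlg, a secreted product of neutrophils, measured 1.42, 1.03 and 1.28 CPM in IN@OMVs and 27.7, 15.7 and 25.5 CPM in OMVs, -4.21 ± 0.32 (adjusted p = 0.000413). Cxcr2, the receptor through which neutrophils follow Cxcl1 and Cxcl2, measured 7.57, 4.11 and 4.89 CPM in IN@OMVs and 24.8, 18.7 and 21.8 CPM in OMVs, -1.98 ± 0.26 (adjusted p = 0.00497). Ngp, a neutrophil granule protein, had 8 expected counts over the 3 IN@OMVs libraries and 909 over OMVs; its log2 fold change was -6.75, and -8.09 without IN@OMVs 1. The sort on F4/80 and CD11b should leave out neutrophils, which carry CD11b but little F4/80; how pure the sorted cells were was not measured here. In these bulk libraries fewer neutrophils among the sorted cells and less of these transcripts per cell cannot be told apart. The part of neutrophil RNA in the lower acute phase genes was not tested.

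Among monocyte markers, 6 of 13 fell and 0 rose, with a median of -0.69, and they summed to 4930 to 5600 CPM in IN@OMVs and 6640 to 7340 CPM in OMVs. F13a1, coagulation factor XIII, was at 298, 275 and 285 CPM in IN@OMVs and 511, 597 and 759 CPM in OMVs, -1.12 ± 0.13 (adjusted p = 0.00291). The defining markers of inflammatory monocytes, Ly6c2 (0.35 ± 0.23, adjusted p = 0.564) and Ccr2 (-0.01 ± 0.13, adjusted p = 0.985), did not pass. Of 16 chemokine receptors 3 fell, Cxcr2 and the formyl peptide receptors Fpr1 and Fpr2, which sense bacterial peptides. Fpr1 measured 9.05, 7.41 and 8.44 CPM in IN@OMVs and 34.2, 37.3 and 48.3 CPM in OMVs, -2.26 ± 0.15 (adjusted p = 0.000206).

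Of 8 tested factors that attract and expand neutrophils 4 fell and 0 rose, with a median of -1.65. Cxcl1, a chemokine for neutrophils, was at 7.94, 10.6 and 8.5 CPM in IN@OMVs, 52.3, 88.1 and 51 CPM in OMVs and 24.3, 26.5 and 27.3 CPM in Control. The 2 vesicle groups lay on opposite sides of Control, without overlap. OMVs minus Control was 1.29 ± 0.21 (adjusted p = 0.04), IN@OMVs minus Control -1.53 ± 0.22 (adjusted p = 0.00445) and IN@OMVs minus OMVs -2.82 ± 0.22 (adjusted p = 0.000508). Csf3, or G-CSF, the growth factor of neutrophils, was at 0.554, 0.798 and 0.64 CPM in IN@OMVs, 7.47, 11.1 and 11.1 CPM in OMVs and 5.19, 4.91 and 6.68 CPM in Control, -3.88 ± 0.25 between the vesicle groups (adjusted p = 0.000164). Cxcl2 measured 185, 136 and 143 CPM in IN@OMVs and 388, 429 and 415 CPM in OMVs, -1.41 ± 0.12 (adjusted p = 0.000635). Cxcl3 measured 76.1, 68.6 and 68.3 CPM in IN@OMVs and 134, 148 and 165 CPM in OMVs, -1.07 ± 0.09 (adjusted p = 0.000635). Unlike Cxcl1, the OMVs libraries of Cxcl2 and Cxcl3 overlapped those of Control.

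The promoters of Cxcl1 and Cxcl2 are shown because each holds the NF-kB consensus, in capitals, close to the start. They lie at chr5:90890995-90891294 and chr5:90903649-90903948 of GRCm38.p6, both on the plus strand.
Cxcl1: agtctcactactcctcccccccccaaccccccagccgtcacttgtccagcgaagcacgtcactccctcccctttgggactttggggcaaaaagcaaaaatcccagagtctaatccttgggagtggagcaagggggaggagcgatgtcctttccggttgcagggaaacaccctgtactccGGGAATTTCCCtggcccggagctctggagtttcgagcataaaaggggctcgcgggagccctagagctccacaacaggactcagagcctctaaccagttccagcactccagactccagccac
Cxcl2: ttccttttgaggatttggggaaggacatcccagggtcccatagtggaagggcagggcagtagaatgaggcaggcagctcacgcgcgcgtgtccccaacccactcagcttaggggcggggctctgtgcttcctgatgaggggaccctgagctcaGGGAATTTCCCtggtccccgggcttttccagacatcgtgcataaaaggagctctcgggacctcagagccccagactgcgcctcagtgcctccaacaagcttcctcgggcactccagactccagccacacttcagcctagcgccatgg
In each, 2 matches of the consensus overlap in the capitals. The consensus was found in 13 of 26 promoters of an NF-kB list, and in 13.8% of promoters of higher genes, 15.2% of lower, 10.4% of tested genes and 8.46% of all promoters of this length.

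Of 18 inflammatory cytokines 4 fell (Il6, Il1b, Il1a and Osm), 0 rose and 14 did not pass, with a median of -0.55. Without IN@OMVs 1, 7 fell. Il1b, the fever-inducing interleukin 1β, was at 155, 110.0 and 129.7 CPM in IN@OMVs, 429.9, 511 and 544 CPM in OMVs and 593, 420.5 and 418 CPM in Control. OMVs overlapped Control, and IN@OMVs was below both, -1.91 ± 0.17 against OMVs (adjusted p = 0.000838). Il1a, its relative, measured 16.6, 16.2 and 15.3 CPM in IN@OMVs and 34, 47.8 and 49.5 CPM in OMVs, -1.45 ± 0.15 (adjusted p = 0.00152). Il6 was low in IN@OMVs, at 0.616, 0.171 and 0.582 CPM (23 expected counts in all), against 3.68, 5.13 and 5.26 CPM in OMVs, -3.35 ± 0.34 (adjusted p = 0.00152). Tnf, another product of Toll-like receptor signalling, overlapped between the groups, at 44.2, 28.9 and 30.2 CPM in IN@OMVs and 28.5, 28.2 and 34.4 CPM in OMVs, 0.18 ± 0.16 (adjusted p = 0.705). Neutrophil markers, at 290 to 358 CPM in IN@OMVs and 900 to 1170 CPM in OMVs, moved in the same direction as the lower chemokines and cytokines, and their part in these genes was not tested.

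Of 28 NF-kB subunits, inhibitors and targets 11 fell, 0 rose and 17 did not pass, with a median of -0.35. Nfkbia, which encodes the inhibitor IκBα and is itself induced by NF-kB, was at 156, 141 and 146 CPM in IN@OMVs and 231, 229 and 231 CPM in OMVs, -0.64 ± 0.08 (adjusted p = 0.00497). Sod2, the mitochondrial superoxide dismutase, was at 155, 134 and 135 CPM in IN@OMVs and 203, 249 and 267 CPM in OMVs, -0.77 ± 0.10 (adjusted p = 0.00497). Ptgs2, or cyclooxygenase 2, the inducible enzyme of prostaglandin synthesis, was at 117, 97.2 and 102 CPM in IN@OMVs and 223, 288 and 268 CPM in OMVs, -1.30 ± 0.11 (adjusted p = 0.000635). In all 3 genes the groups did not overlap. This count depended on single libraries. It was 17 without IN@OMVs 1, 7 without IN@OMVs 2 and 5 without IN@OMVs 3. Without OMVs 1, 2 or 3 it was 6, 4 or 4, and without Control 3 it was 7.

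Immediate early genes, transcription factors and phosphatases induced within minutes of a stimulus, fell in 7 of 24 cases, and 0 rose. In DESeq2 11 fell. Nr4a1, a nuclear receptor, was at 24.5, 19.5 and 21.7 CPM in IN@OMVs, 64.2, 51.3 and 55.1 CPM in OMVs and 142, 104 and 95.1 CPM in Control, 3 levels without overlap, with -1.38 ± 0.16 between the vesicle groups (adjusted p = 0.00291). Dusp1, a phosphatase that ends MAP kinase signals, was at 403, 321 and 328 CPM in IN@OMVs and 619.6, 654 and 653 CPM in OMVs, -0.87 ± 0.10 (adjusted p = 0.00214). Socs3, the feedback inhibitor of IL-6 and G-CSF signalling, measured 271, 215 and 218 CPM in IN@OMVs and 420.3, 488 and 492 CPM in OMVs, -0.99 ± 0.10 (adjusted p = 0.0016). Socs1 and Socs3 thus moved in opposite directions in the same libraries.

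**Figure D4:**
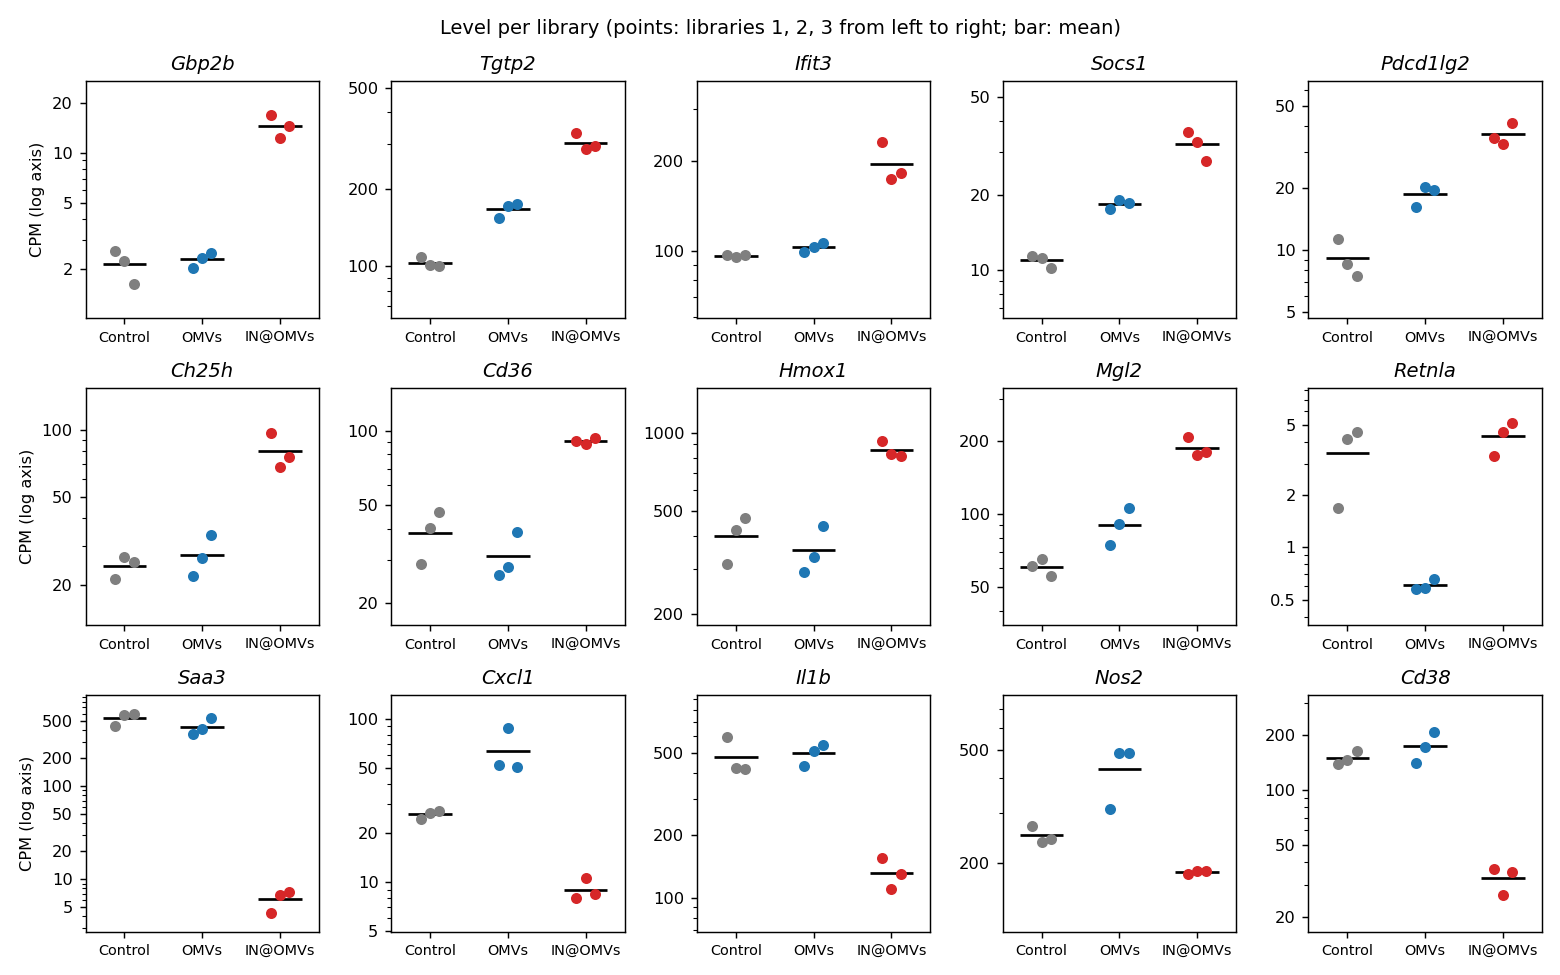
CPM (log axis, a different range in each panel) of 15 genes in each library, with the group mean as a bar, for Control, OMVs and IN@OMVs. In every panel the 3 IN@OMVs libraries are all above or all below the 3 OMVs libraries, for example 12.3 to 16.9 CPM against 2.01 to 2.51 CPM for Gbp2b.

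Genes of classical activation, the state set by interferon-γ and lipopolysaccharide together, mostly fell where they passed. Of 24 members 10 fell and 1 rose, Irf1, with a median of -0.48. Nos2, which makes nitric oxide from arginine, was at 183, 188 and 188 CPM in IN@OMVs, 311, 489.9 and 487 CPM in OMVs and 270.4, 237 and 244 CPM in Control. OMVs libraries were above Control, and IN@OMVs libraries were below all others, -1.20 ± 0.15 against OMVs (adjusted p = 0.00436). Neither vesicle group passed the test against Control for Nos2, with 0.78 ± 0.15 (adjusted p = 0.0959) for OMVs and -0.43 ± 0.15 (adjusted p = 0.158) for IN@OMVs. Irf1, a transcription factor of the interferon-γ response, measured 321, 275 and 303 CPM in IN@OMVs and 217, 230.2 and 224 CPM in OMVs, 0.42 ± 0.08 (adjusted p = 0.0212), and its call was lost without IN@OMVs 3, any 1 of the OMVs libraries or Control 3, where the adjusted p reached 0.0954. Ccl5, chosen after its values were seen, was the one T cell attracting chemokine of 4 that passed, and it fell, from 184, 200.2 and 243 CPM in OMVs to 103, 76.4 and 77.8 CPM in IN@OMVs, -1.29 ± 0.13 (adjusted p = 0.00152).

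Among 21 enzymes of arginine, tryptophan and NAD metabolism 5 fell and 0 rose. Cd38, a surface enzyme that consumes NAD, was at 36.8, 26.6 and 35.4 CPM in IN@OMVs, 140.4, 171 and 208 CPM in OMVs and 138, 146 and 162 CPM in Control. The low level was seen in IN@OMVs alone, -2.39 ± 0.17 against OMVs (adjusted p = 0.000233). Arg2, the mitochondrial arginase, was at 10.8, 8.9 and 10.1 CPM in IN@OMVs and 21.7, 24.7 and 30.1 CPM in OMVs, -1.36 ± 0.13 (adjusted p = 0.00135), with fractional expected counts in all 9 libraries. Arg1, the cytosolic arginase and a common marker of tumour macrophages, did not pass, at 1873, 1776 and 1809 CPM in IN@OMVs and 1523, 1936 and 2259 CPM in OMVs, -0.07 ± 0.13 (adjusted p = 0.889). The 5 calls were 3 without IN@OMVs 2, IN@OMVs 3, OMVs 2, OMVs 3 or Control 3.

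Alternative activation genes moved the other way for a minority of members. Of 24 tested 6 rose and 0 fell, with a median of 0.24. Mgl2, a lectin that binds galactose-type sugars, was at 208, 175 and 180.4 CPM in IN@OMVs, 74.7, 90.9 and 106 CPM in OMVs and 60.9, 65.2 and 55.8 CPM in Control. The 3 groups formed rising steps, and the step between the vesicle groups was 1.05 ± 0.13 (adjusted p = 0.00291). It had fractional expected counts in all 9 libraries. Retnla, a secreted protein of alternatively activated macrophages, was low throughout, at 3.33, 4.56 and 5.12 CPM in IN@OMVs, 0.574, 0.583 and 0.657 CPM in OMVs and 1.67, 4.15 and 4.55 CPM in Control. OMVs was the low group here, and IN@OMVs overlapped Control. The difference between the vesicle groups was 2.83 ± 0.40 (adjusted p = 0.00634), with -2.50 ± 0.40 for OMVs minus Control (adjusted p = 0.0403) and 0.33 ± 0.34 for IN@OMVs minus Control (adjusted p = 0.668).

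Type 2 chemokines, which attract eosinophils and T helper 2 or regulatory T cells, rose in 3 of 5 cases (Ccl17, Ccl22 and Ccl24). These 3 genes also belong to the alternative activation list and are among its 6 rises. Ccl24, a chemokine for eosinophils, was at 4.8, 4.73 and 4.6 CPM in IN@OMVs, 1.78, 1.4 and 2.09 CPM in OMVs and 3.87, 2.57 and 2.71 CPM in Control, 1.42 ± 0.22 between the vesicle groups (adjusted p = 0.00976). Ccl22 measured 31.7, 30.3 and 33.9 CPM in IN@OMVs, 18.3, 17.6 and 19.4 CPM in OMVs and 33.4, 27 and 21.6 CPM in Control, 0.79 ± 0.14 (adjusted p = 0.0196). For both chemokines IN@OMVs was above OMVs, neither vesicle group passed against Control, and OMVs lay below all Control libraries. IN@OMVs lay above all Control libraries for Ccl24 and overlapped Control for Ccl22. Without IN@OMVs 3 or any 1 of the OMVs libraries, 1 of the 3 calls was left, and the adjusted p of Ccl22 reached 0.0924. Alternative activation rises were 3, not 6, without IN@OMVs 3 or OMVs 1, and 10 in DESeq2. Pdcd1lg2, the second ligand of the inhibitory receptor PD-1, was at 35.1, 32.7 and 41.3 CPM in IN@OMVs, 16.1, 20.3 and 19.7 CPM in OMVs and 11.3, 8.54 and 7.49 CPM in Control, 0.96 ± 0.16 (adjusted p = 0.0135). Its groups did not overlap, though without IN@OMVs 3 or OMVs 1 the call was lost, with an adjusted p of up to 0.0619. Cd274, the first PD-1 ligand, overlapped between the vesicle groups, at 227, 173 and 215 CPM in IN@OMVs and 198, 242 and 259 CPM in OMVs, -0.18 ± 0.12 (adjusted p = 0.579).

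Of 19 haem and iron genes tested, 3 rose (Hmox1, Slc40a1 and Slc48a1) and 4 fell (Lcn2, Steap4, Cp and Tfrc). Hmox1, haem oxygenase 1, which breaks down haem, was at 928, 826 and 811 CPM in IN@OMVs, 291, 331 and 438 CPM in OMVs and 313, 421 and 469.9 CPM in Control, 1.27 ± 0.18 (adjusted p = 0.00604). Slc40a1, ferroportin, the exporter of iron, was at 10.3, 12.4 and 11.6 CPM in IN@OMVs, 4.48, 3.44 and 5.62 CPM in OMVs and 5.66, 5.73 and 6.57 CPM in Control, 1.34 ± 0.18 (adjusted p = 0.00497). Both were above all OMVs and Control libraries in each IN@OMVs library. Slc48a1, a haem transporter chosen after its values were seen, differed by 0.51 ± 0.07 (adjusted p = 0.00581). Tfrc, the transferrin receptor that takes up iron, was at 49.5, 51.4 and 57.5 CPM in IN@OMVs and 92.2, 84.4 and 85.3 CPM in OMVs, -0.73 ± 0.08 (adjusted p = 0.00184). Steap4, a metalloreductase, was at 2.22, 2.22 and 3.32 CPM in IN@OMVs and 18.3, 16.3 and 20.4 CPM in OMVs, -2.82 ± 0.17 (adjusted p = 0.000133). Cp, ceruloplasmin, a ferroxidase, was at 15.3, 13.6 and 14.6 CPM in IN@OMVs and 25.5, 27.3 and 31.5 CPM in OMVs, -0.96 ± 0.10 (adjusted p = 0.00195). The other 12 members did not pass. Erythroid markers summed to 25.1, 14.1 and 3.61 CPM in IN@OMVs and 11.9, 3.09 and 3.52 CPM in OMVs, and their part in the haem genes was not tested.

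Hmox1 is also a target of NRF2, the regulator of antioxidant genes. In a list of 21 NRF2 targets 4 rose and 1 fell. Gclc, the catalytic subunit of the enzyme that starts glutathione synthesis, was at 34.6, 34.3 and 35.6 CPM in IN@OMVs and 24.2, 24.9 and 24.1 CPM in OMVs, 0.51 ± 0.06 (adjusted p = 0.00214). Gsr, glutathione reductase, fell, at 56.6, 63 and 60.7 CPM in IN@OMVs against 109.8, 99.2 and 107 CPM in OMVs, -0.81 ± 0.07 (adjusted p = 0.000635). The 4 rises were 8 without IN@OMVs 1 and 2 without OMVs 2.

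Of 25 lipid-associated and oxysterol genes 4 rose and 1 fell. Ch25h, which makes 25-hydroxycholesterol and is itself an interferon target, was at 96.1, 67.7 and 75.5 CPM in IN@OMVs, 22.1, 26.5 and 33.7 CPM in OMVs and 21.3, 26.7 and 25.4 CPM in Control. Cd36, a receptor for oxidised lipids and apoptotic cells, was at 90.5, 87.9 and 93 CPM in IN@OMVs, 26.1, 28.1 and 38.8 CPM in OMVs and 28.8, 40.3 and 46.9 CPM in Control. In both genes OMVs overlapped Control and every IN@OMVs library was above. The differences from OMVs were 1.54 ± 0.17 for Ch25h (adjusted p = 0.00237) and 1.54 ± 0.19 for Cd36 (adjusted p = 0.00299). Lgals3, galectin 3, a lectin abundant in lipid-loaded macrophages, rose by 0.57 ± 0.08 (adjusted p = 0.00766), from 755, 777 and 854 CPM in OMVs to 1304, 1144 and 1087 CPM in IN@OMVs. Spp1, osteopontin, of the same list, did not pass and its groups overlapped, at 815, 886 and 877 CPM in IN@OMVs and 791, 820.0 and 931 CPM in OMVs, 0.02 ± 0.08 (adjusted p = 0.95).

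Receptors for microbial products changed in small number. Of 26 Toll-like receptor and lipopolysaccharide recognition genes 3 fell (Cd14, Irak3 and Acod1) and 1 rose (Cd180). Tlr12, a Toll-like receptor that this list does not hold, rose as well. Its levels were 16, 10.7 and 10.5 CPM in IN@OMVs and 5.11, 5.01 and 5.97 CPM in OMVs, 1.21 ± 0.19 (adjusted p = 0.0112). The call of Tlr12 was lost without OMVs 1 or OMVs 2. Cd14, which hands lipopolysaccharide to its receptor, was at 406, 321 and 322 CPM in IN@OMVs and 559, 696 and 739.7 CPM in OMVs, -0.93 ± 0.12 (adjusted p = 0.00497), with no overlap. The 3 falls were 1 without IN@OMVs 3, OMVs 2 or OMVs 3, and 5 without IN@OMVs 1. The call of Cd180, which rose, was lost without OMVs 1 or OMVs 2, and 2 members rose without IN@OMVs 1 or IN@OMVs 2. Among 15 C-type lectins Clec4e (Mincle), a receptor for mycobacterial glycolipids, fell, at 134, 108 and 114 CPM in IN@OMVs and 187, 211 and 243 CPM in OMVs, -0.85 ± 0.12 (adjusted p = 0.00597). Mgl2 and Clec7a (Dectin-1), the receptor for fungal glucans, rose; Clec7a was at 477, 418 and 422 CPM in IN@OMVs and 247, 288 and 316 CPM in OMVs, 0.63 ± 0.11 (adjusted p = 0.0212). The call of Clec7a was lost without IN@OMVs 3, OMVs 1 or OMVs 2, with an adjusted p of up to 0.0882.

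Of 26 matrix genes 6 fell and 2 rose. Plau, urokinase, which activates plasminogen, was at 245, 185 and 189 CPM in IN@OMVs, 82.5, 99.7 and 116 CPM in OMVs and 92.5, 100.3 and 109.5 CPM in Control. It was higher in every IN@OMVs library, 1.05 ± 0.14 against OMVs (adjusted p = 0.00581). Mmp8, the collagenase of neutrophil granules, was at 18.2, 17.4 and 16.4 CPM in IN@OMVs and 76.1, 61.5 and 80.5 CPM in OMVs, -2.07 ± 0.15 (adjusted p = 0.000359). Mmp19, a metalloproteinase outside the neutrophil list, was at 89.7, 70.4 and 75 CPM in IN@OMVs and 121, 139 and 159 CPM in OMVs, -0.83 ± 0.12 (adjusted p = 0.00604), with fractional expected counts in all 9 libraries. The 2 rises, Plau and Mmp12, were 5 without IN@OMVs 1 and 1 without IN@OMVs 2, IN@OMVs 3 or OMVs 2.

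Among 24 angiogenic and growth factors 3 fell (Pgf, Nrg1 and Inhba) and 0 rose. Pgf, placental growth factor, a ligand of the receptor Flt1, was at 7.33, 7.41 and 6.87 CPM in IN@OMVs, 17.4, 27.4 and 21.7 CPM in OMVs and 8.94, 9.76 and 8.18 CPM in Control. Nrg1, neuregulin 1, a ligand of ErbB receptors, was at 15.5, 17 and 16.6 CPM in IN@OMVs, 33.4, 44.1 and 43.3 CPM in OMVs and 21.9, 20.6 and 21.1 CPM in Control. For both, OMVs was the high group and stood above Control, while IN@OMVs was below every Control library. The differences between the vesicle groups were -1.62 ± 0.16 for Pgf (adjusted p = 0.00144) and -1.30 ± 0.11 for Nrg1 (adjusted p = 0.000635). Pgf differed from Control by 1.31 ± 0.16 in OMVs (adjusted p = 0.0234) and by -0.31 ± 0.16 in IN@OMVs (adjusted p = 0.344).

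**Figure D5:**
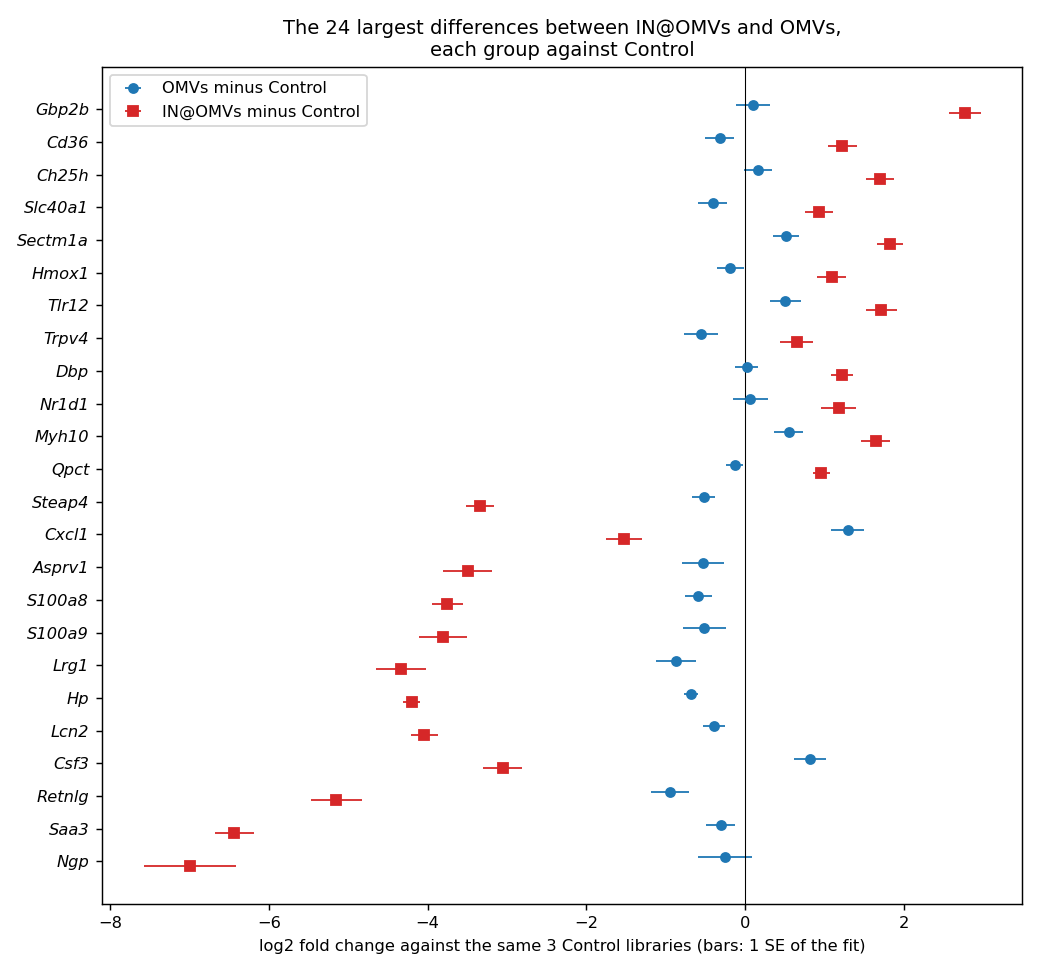
Log2 fold change against Control (x axis) of OMVs (blue circles) and IN@OMVs (red squares) for the 12 largest rises and 12 largest falls between the vesicle groups among genes with a mean of at least 5 CPM, with bars of 1 SE. Both series use the same 3 Control libraries. Cxcl1 and Csf3 lie right of 0 in OMVs and left of it in IN@OMVs.

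Other lists held no member past the edgeR threshold. These were the mitochondrial respiratory chain (38 tested, median 0.04), the cell cycle (34, median -0.22), the unfolded protein response (23, median -0.02), cholesterol synthesis (23, median 0.10) and Fcγ receptors (6, median 0.16). At an unadjusted p under 0.05 there were 2, 14, 2, 5 and 1 members in that order. DESeq2 called 3 lower cell cycle genes, 1 lower gene of the unfolded protein response and none of the other 3 lists. Without IN@OMVs 1, 2 cholesterol genes passed, both higher. In the cell cycle list 33 of 34 members had a negative log2 fold change although none passed in edgeR. Among 28 genes of glycolysis and hypoxia 2 fell, where 1.75% of all genes tested fell. Pfkfb3, the activator of glycolysis, chosen after its values were seen, was at 157, 123 and 140.4 CPM in IN@OMVs and 227, 283 and 304 CPM in OMVs, -0.95 ± 0.12 (adjusted p = 0.00346). The 2 falls were 4 without IN@OMVs 1 and 1 without IN@OMVs 2, IN@OMVs 3, OMVs 2 or OMVs 3.

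Several common macrophage genes, named whatever their p, did not pass with all 9 libraries in the fit. Mrc1, the mannose receptor, was at 1251, 909.8 and 1011 CPM in IN@OMVs and 871, 1112 and 1328 CPM in OMVs, -0.06 ± 0.16 (adjusted p = 0.921). Cd163, the scavenger receptor for haemoglobin bound to haptoglobin, was at 2.71, 2.57 and 2.79 CPM in IN@OMVs, 2.41, 2.22 and 5.14 CPM in OMVs and 10.4, 16.1 and 17.9 CPM in Control. Both vesicle groups of Cd163 were below every Control library and overlapped each other, -0.27 ± 0.34 between them (adjusted p = 0.802). Il10, an anti-inflammatory cytokine, measured 3.88, 1.31 and 1.46 CPM in IN@OMVs and 2.7, 3.38 and 3.35 CPM in OMVs, -0.51 ± 0.38 (adjusted p = 0.63). Whether it passed depended on IN@OMVs 1, the highest of the 6 libraries, since without it the difference was -1.18 and passed (adjusted p = 0.0119). Il12b, a subunit of interleukin 12, did not overlap between the groups, at 4.37, 2.97 and 4.42 CPM in IN@OMVs and 2.07, 1.92 and 2.09 CPM in OMVs, but its difference of 0.95 ± 0.33 did not pass (adjusted p = 0.224). Cd86, a costimulatory ligand, overlapped, with 0.16 ± 0.14 (adjusted p = 0.686). A p above the threshold does not show that the groups are equal. In libraries simulated for this comparison over 13090 genes, the test found 43.3% of the 1.5-fold changes, 71.6% of the 2-fold changes and 98.5% of the 4-fold changes. The changes were placed only in genes with a mean of at least 1 CPM, 66 or 67 genes per fold. No simulated library was made to stand apart as IN@OMVs 1 did, so these shares may not hold for lower genes or for the real libraries.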

How the data were processed

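The authors deposited expected counts per gene and library in 1 table of 18042 gene symbols, 799 of them at 0 in every library. The unit was read from the values, of which 88.8% to 89.6% per library were whole. BWA, Bowtie2 and RSEM are named, with no version, in the submitters' processing notes; no source used here ties a genome build to the table. Expected counts were rounded and tested with edgeR 4.0.16 (R 4.3.3; quasi-likelihood, TMM factors, filterByExpr) over all 9 libraries with 1 mean per group. The result is the contrast IN@OMVs minus OMVs, adjusted by Benjamini-Hochberg over 13090 genes, with a threshold of 0.05. The coefficient of variation between libraries was 0.131, with 6 residual degrees of freedom. SEs were derived from the fit, as the absolute log2 fold change divided by the square root of the quasi-likelihood F statistic.

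Members and lists (40 of pathways, 14 of cell type markers) were chosen with earlier results of these data known, and no set was tested. Some genes belong to more than 1 list, so counts of different lists can hold the same genes. The rule for named genes took the 12 largest changes per direction with groups that did not overlap and at least 5 CPM, up to 4 members of each list with at least 3 calls, and 14 fixed macrophage genes. It gave 100 genes, of which 89 passed. Alternatives used DESeq2 1.42.0, limma 3.58.1, other scaling, no filter, only the 6 libraries compared, a replicate block and each library left out. On simulated data 13 of 155 calls were false. Promoters were matched by symbol to a RefSeq table of GRCm38.p6, for 10424 of 13090 tested genes.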

Additional observations from a re-analysis of the deposited data

How the results depend on the processing

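The total of 373 genes was 374 with DESeq2 size factors, 435 with upper quartile factors, 369 without the filter and 353 with limma-voom. DESeq2 called 646 (285 higher, 361 lower), which held all 373. With only the 6 libraries compared it was 195 (60 higher, 135 lower). Leaving out each library gave totals of 180 to 786, with 48 to 297 higher and 119 to 489 lower, 12 to 27 higher by at least 1 log2 unit and 60 to 115 lower by at least 1. Without the 3 libraries numbered 1, an alternative added after the data were seen because T cell markers were high in them, 844 genes passed (281 higher, 563 lower, 348 of the 373 among them). The labels state no pairing, so the replicate numbers were not taken as pairs. Deviations of same-numbered libraries of the vesicle groups correlated at 0.086, 0.488 and -0.355, and those of differently numbered ones at -0.527 to 0.411. NK cell markers too were highest in library 1 of each group, at 134 CPM in Control 1 against 31.6 and 29.3 CPM in Control 2 and 3. Whether libraries of the same number share a batch was not tested. With the replicate block 306 genes passed (107 higher, 199 lower), 282 of them among the 373.

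Named genes were picked in part by size of change and by p in these same data, which favours keeping their calls. Their counts therefore do not stand for all genes called. Of the 89 named genes that passed, 66 passed under all 17 alternatives, and none changed direction. The other 23 lost their call without at least 1 library, and the highest adjusted p of each gene lay between 0.0517 and 0.179: Acod1, Apoc2, Bst1, Ccl17, Ccl22, Cd180, Clec7a, Csf3r, Il1r2, Inhba, Irak3, Marco, Myh10, Nlrc5, Nr1d1, Pdcd1lg2, Prdx1, Psmb10, Rtp4, Tap2, Tlr12, Trib1 and Trpv4. Of the 11 named genes that did not pass, 6 changed sign under some alternative. Leaving out each library gave Arg1 -0.21 to 0.07, Mrc1 -0.21 to 0.10, Cd163 -0.49 to 0.22, Tnf -0.04 to 0.29 and Spp1 -0.03 to 0.09. Without the 3 libraries numbered 1 Tnf was -0.08 and Cd86 -0.09, Cd274 (-0.37, adjusted p = 0.0352) and Il10 (-1.28, adjusted p = 0.0114) passed, and lower calls were 7 of 8 neutrophil attracting factors, 8 of 18 inflammatory cytokines, 19 of 28 NF-kB genes and 13 of 17 acute phase genes, with 22 of 29 interferon-γ genes higher and 1 lower. The cause of these moves was not tested.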

Other observations

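Of the 373 genes, 226 belonged to none of the lists, 82 of them higher and 144 lower in IN@OMVs. A few are given here as values. Dbp was named by rule, and the others were chosen after their values were seen. Dbp, a clock-controlled transcription factor, was at 15.2, 21.8 and 20.6 CPM in IN@OMVs, 8.33, 8.51 and 8.24 CPM in OMVs and 8.88, 7.78 and 8.07 CPM in Control, 1.20 ± 0.14 (adjusted p = 0.00274). Nfil3, which competes with Dbp for the same sites, was at 58.8, 48.6 and 46.9 CPM in IN@OMVs and 86.3, 90.3 and 92.5 CPM in OMVs, -0.80 ± 0.12 (adjusted p = 0.00766). The 2 genes moved in opposite directions without overlap between the vesicle groups. The hour of day of collection was not used here, and Dbp had fractional expected counts in 8 libraries.

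Of 19 tested genes of the zinc transporter families Slc30a and Slc39a, 1 rose, 2 fell and 16 did not pass. Over all genes tested 1.10% rose and 1.75% fell. Slc30a1, which exports zinc from the cell, was at 38.3, 31.4 and 36.1 CPM in IN@OMVs, 16.7, 17.7 and 21.3 CPM in OMVs and 16.3, 16.4 and 16.2 CPM in Control, 0.93 ± 0.11 (adjusted p = 0.00249). The importers Slc39a14 and Slc39a10 fell. Slc39a14 was at 67.1, 69.6 and 74.4 CPM in IN@OMVs and 105, 135 and 129 CPM in OMVs, -0.80 ± 0.10 (adjusted p = 0.00299). Slc39a10 was at 50.7, 53.7 and 53.3 CPM in IN@OMVs and 86, 86.8 and 90.3 CPM in OMVs, -0.74 ± 0.06 (adjusted p = 0.000609). In these 3 genes the vesicle groups did not overlap.

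Tnfrsf9 (4-1BB), a costimulatory receptor, was at 64, 56.5 and 58.6 CPM in IN@OMVs, 93.6, 119.7 and 125 CPM in OMVs and 78, 59.8 and 64.1 CPM in Control, -0.92 ± 0.13 (adjusted p = 0.00604). Its high group was OMVs, with IN@OMVs below every OMVs library and close to Control. Cd177, a surface protein of neutrophils, was at 1.97, 1.71 and 1.8 CPM in IN@OMVs and 14.5, 8.16 and 9.68 CPM in OMVs, -2.56 ± 0.30 (adjusted p = 0.00291), beside the neutrophil markers, which summed to 290 to 358 CPM and 900 to 1170 CPM; the part of neutrophil RNA was not tested.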
